A study of Mus musculus with 2 samples.

Results

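The cells described here are macrophages in a preparation of the mouse retinal pigment epithelium (RPE) and choroid. They were selected by their summed Lyz2, Ms4a7 and Ms4a6c transcripts and had few MHC class II transcripts. They had been proposed as monocyte-derived macrophages that appear after sodium iodate (NaIO3), with Lyz2, Ms4a7, Ms4a6c, Wfdc17 and Bcl2a1b as markers. Members were chosen by measured counts: a barcode needed 500 genes or more, a mitochondrial share no higher than 25%, and sums within 4 limits of CP10K, the counts of a gene per 10000 counts of the barcode. The limits were at least 30 for Tyrobp, Fcer1g, Ctss, C1qa, C1qb and C1qc, under 100 for 5 RPE genes, under 30 for Cd74, H2-Ab1, H2-Aa and H2-Eb1, and at least 10 for Lyz2, Ms4a7 and Ms4a6c. The rule selected 517 of 8331 kept barcodes, 478 of 3944 in the NaIO3 library and 39 of 4387 in the PBS library.

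The NaIO3 group was C57BL/6J mice given 20 mg/kg NaIO3 in PBS into a vein, and the PBS group was C57BL/6J mice given the same volume of PBS alone. Both were treated for 7 days, and the labels used here give no age or sex. Eyes of 6 mice were pooled into 1 droplet library per group after dispase digestion; the retina was peeled off and brownish hexagonal cells were picked under a microscope, so the number of macrophages also depends on that collection. With 1 library per group no difference below has a replicate check, and every interval is a 95% interval for counting error only.

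NaIO3 is an oxidant that injures the RPE, the pigmented layer that serves the photoreceptors. Phagocytes of this tissue come from long-lived resident cells, microglia of the retina and macrophages of the choroid among them, and from blood monocytes that leave the circulation, lose Ly6c2 and Ccr2 and take on macrophage genes. Lyz2 encodes lysozyme M, an enzyme that cuts bacterial cell walls, and Ms4a7 and Ms4a6c encode membrane proteins of the MS4A family found in macrophages and monocytes.

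The NaIO3 library held 51168520 UMIs (unique molecular identifiers, 1 per captured transcript) in 4058 barcodes and the PBS library 51055592 in 4618. The selected macrophages held 6641850 UMIs after NaIO3, with a median of 12128.5 per cell, and 215502 after PBS, with a median of 4540. Scrublet removal of the highest doublet scores would take 19 of the 478 NaIO3 macrophages (3.97%) and 0 of the 39 PBS macrophages. The libraries shared 24 barcode sequences, 6 of them among the NaIO3 macrophages and 0 among the PBS macrophages. Keratin genes at 50 CP10K or more, or fibroblast genes at 10 CP10K or more, occurred in 20 NaIO3 macrophages and in 1 PBS macrophage. That single PBS barcode held 22376 UMIs, 10.4% of all PBS macrophage UMIs, so several values that rest on it are also given without these 21 barcodes.

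The selected macrophages made up 12.1% of kept barcodes after NaIO3 (11.1 to 13.2%, exact Clopper-Pearson interval) and 0.889% after PBS (0.633 to 1.21%). Class II myeloid barcodes, which met the myeloid and RPE limits but had at least 30 CP10K of the class II genes, were 35 of 3944 after NaIO3 (0.887%) and 73 of 4387 after PBS (1.66%). Among all barcodes that met the myeloid and RPE limits, the selected macrophages were thus 92.3% after NaIO3 and 31.5% after PBS. Macrophages below 10 CP10K for Lyz2, Ms4a7 and Ms4a6c, called low-sum macrophages here, numbered 5 after NaIO3 and 12 after PBS, and the selected cells were 99.0% (97.6 to 99.7%) and 76.5% (62.5 to 87.2%) of both kinds together.

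The selecting sum was high in most of these cells. Its median was 81.7 CP10K after NaIO3 (range 10.7 to 817) and 165 CP10K after PBS (range 10.6 to 633). Between 10 and 15 CP10K lay 6 NaIO3 and 3 PBS cells, and between 5 and 10 CP10K lay 3 NaIO3 and 6 PBS low-sum cells. RPE barcodes, which should lack these genes, had a median sum of 4.94 CP10K after NaIO3 and 0 after PBS, and 7.11% of them reached 10 CP10K after NaIO3 against 0.111% after PBS. Lyz2 counts in RPE barcodes, in which free RNA and RNA of the cells cannot be told apart, thus came close to the threshold in the NaIO3 library, where these barcodes held 473 CPM (counts per 1000000 summed counts) of Lyz2, against 27.8 CPM in the PBS library.

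**Figure D1:**
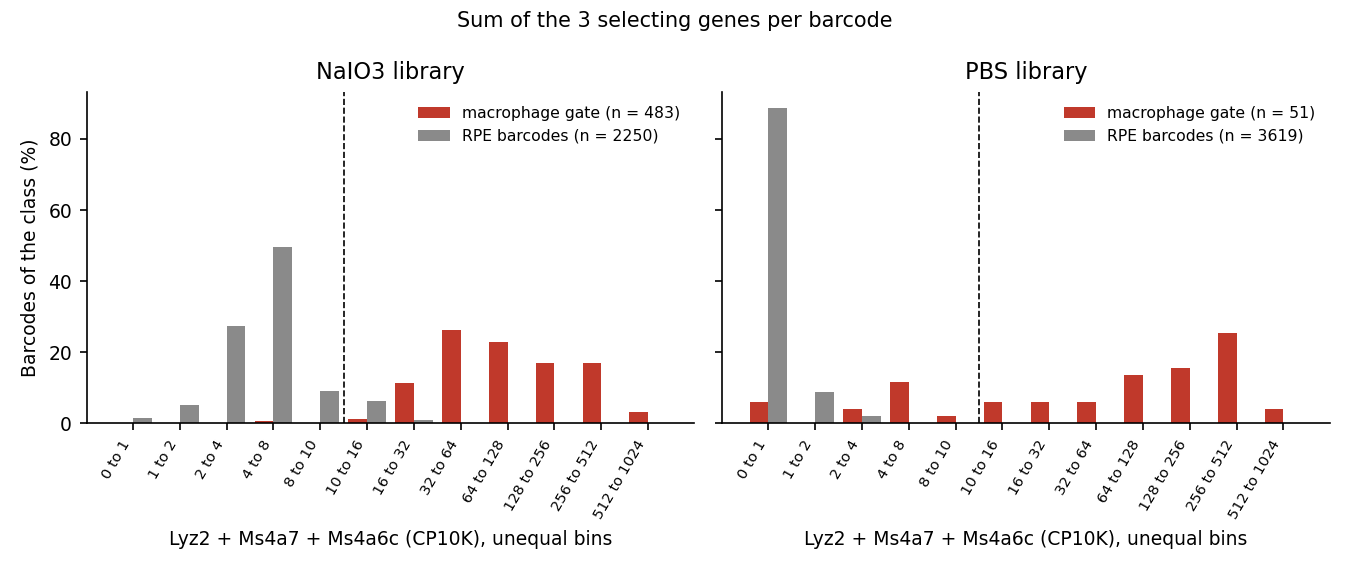
Share of barcodes (y axis, %) by summed Lyz2, Ms4a7 and Ms4a6c (x axis, CP10K, unequal bins) for macrophages below the class II limit (red) and RPE barcodes (grey), NaIO3 left and PBS right; the dashed line is the threshold of 10 CP10K. RPE barcodes of the NaIO3 library have a median of 4.94 CP10K, those of the PBS library a median of 0, and most macrophages lie above both.

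Most of the sum came from Lyz2. Per cell, Lyz2 had a median of 76.5 CP10K after NaIO3 (8.55 to 806) and 139 CP10K after PBS (5.93 to 589), with no cell at 0 in either library. Ms4a7 had a median of 3.86 CP10K after NaIO3 (0 to 35.9) and 17.1 CP10K after PBS (0 to 44.1), and Ms4a6c 2.63 CP10K (0 to 23.2) and 3.11 CP10K (0 to 14.2). The per-cell ranges of all 3 genes overlapped between the libraries. Summed over cells, Lyz2 stood at 14891 CPM after NaIO3 and 20204 CPM after PBS, Ms4a7 at 621 and 1768 CPM, and Ms4a6c at 347 and 357 CPM. These 3 genes chose the cells, so their values are a description only.

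Both markers that the rule did not use were lower after NaIO3. Wfdc17, which encodes a small secreted protein of the whey acidic protein family, had a median of 4.12 CP10K after NaIO3 (0 to 125) and 20.1 CP10K after PBS (0 to 115). Its summed level was 678 CPM after NaIO3 and 2418 CPM after PBS (ratio 0.28, 0.26 to 0.31). Bcl2a1b, a BCL2-related survival gene, stood at 364 and 529 CPM (ratio 0.69, 0.57 to 0.84), with the limit that its near-identical copies Bcl2a1a and Bcl2a1d can share its reads. All 5 markers were also present in class II myeloid barcodes. The selected NaIO3 macrophages had less Wfdc17 (ratio 0.82, 0.72 to 0.94) and Bcl2a1b (0.68, 0.57 to 0.81) than class II barcodes of their library. In RPE barcodes of the NaIO3 library Wfdc17 had 26.8 CPM and Bcl2a1b 8.996 CPM.

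The promoters of Lyz2 and Ms4a7, the selecting genes with the highest counts, are shown with any GAGGAA in capitals, the core letters bound by PU.1, the transcription factor of myeloid cells. Lyz2 (chromosome 10, 117277331 to 117282321), Ms4a7 (chromosome 19, 11321039 to 11336146) and Ms4a6c (chromosome 19, 11469366 to 11482192) are given by GRCm38 gene coordinates, as are Wfdc17 (chromosome 11, 83703991 to 83706268) and Bcl2a1b (chromosome 9, 89199209 to 89207827). The promoter windows run from 250 bases before to 50 bases after the RefSeq start (GRCm38.p6), on the minus strand, and lie at chr10:117282223-117282522 for Lyz2 and chr19:11336097-11336396 for Ms4a7, the window of its 2 promoters that holds the letters.
Lyz2: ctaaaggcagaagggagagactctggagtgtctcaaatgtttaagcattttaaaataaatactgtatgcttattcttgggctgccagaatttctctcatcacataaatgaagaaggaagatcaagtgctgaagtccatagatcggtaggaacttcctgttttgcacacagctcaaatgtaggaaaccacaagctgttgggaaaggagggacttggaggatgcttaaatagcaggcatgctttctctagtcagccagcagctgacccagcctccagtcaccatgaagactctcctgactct
Ms4a7: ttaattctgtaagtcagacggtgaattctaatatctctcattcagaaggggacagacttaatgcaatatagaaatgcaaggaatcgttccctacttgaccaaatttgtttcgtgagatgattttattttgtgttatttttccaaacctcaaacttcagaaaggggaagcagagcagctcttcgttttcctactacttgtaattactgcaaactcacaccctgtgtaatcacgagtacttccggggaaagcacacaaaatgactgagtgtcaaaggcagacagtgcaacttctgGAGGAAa
GAGGAA, sought on both strands, was found once in the Ms4a7 window and not in the Lyz2 window, and 3 of the 5 marker genes had it in at least 1 promoter (Ms4a7, Wfdc17 and Bcl2a1b). It occurs in 31.1% of 26742 genes with promoters of this length, so these matches describe the letters only.

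Of 12 monocyte markers, 3 had over 100 counts in the NaIO3 macrophages (Plac8, Fn1 and Itgal), and the proposed monocyte origin cannot be read from these data. Ccr2, the chemokine receptor with which monocytes leave the bone marrow, had 5 counts in 478 NaIO3 cells and 4 counts in 39 PBS cells, 0.753 and 18.6 CPM, and all 4 PBS counts were in 1 barcode. Ly6c2 had 7 counts after NaIO3 and 1 count after PBS. Ifitm6 had 0 counts after NaIO3, and Vcan had 3 counts after NaIO3 and 0 after PBS. Class II myeloid barcodes, by contrast, held 83.3 CPM of Ccr2 after NaIO3 and 124 CPM after PBS, and 22.9% and 17.8% of them had a Ccr2 UMI after thinning to 3000 UMIs. The same share was 0.6% of selected macrophages after NaIO3 and 2.6% after PBS. Plac8, at 59.2 CPM after NaIO3 and 320 CPM after PBS, was at 26.2 and 135 CPM without the keratin and fibroblast barcodes, and RPE barcodes of the NaIO3 library held 30.2 CPM. The 12 monocyte markers together summed to 183 CPM after NaIO3 and 422 CPM after PBS, against 525 CPM in class II barcodes of the NaIO3 library. Without the keratin and fibroblast barcodes the sums in selected macrophages were 135 and 249 CPM. Of the 3 tested, Fn1 and Itgal were at least 2-fold higher after NaIO3 and Plac8 at least 2-fold lower. Fn1 had 87.2 CPM after NaIO3, below its level over the non-myeloid barcodes of that library, and 0 counts after PBS. Itgal, an integrin chain of leukocytes, had 20.2 CPM after NaIO3 and 4.64 CPM (1 count) after PBS. Without the keratin and fibroblast barcodes the Itgal ratio was 4.07, with an interval (0.72 to 162) that includes 1.

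Genes of resident retinal phagocytes were present at the same time. Fcrls, an Fc receptor-like gene of microglia, had 474 CPM after NaIO3 and 659 CPM after PBS, and Olfml3, a secreted glycoprotein of microglia, had 477 and 269 CPM. P2ry12 and Tmem119, the receptor and membrane protein of homeostatic microglia, were low: P2ry12 had 42.5 CPM after NaIO3 and 88.2 CPM after PBS, and Tmem119 had 64.4 and 223 CPM. In class II barcodes of the NaIO3 library Olfml3 had 120 CPM and Fcrls 156 CPM. The cells are therefore called Lyz2-positive macrophages here, without an origin.

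**Figure D2:**
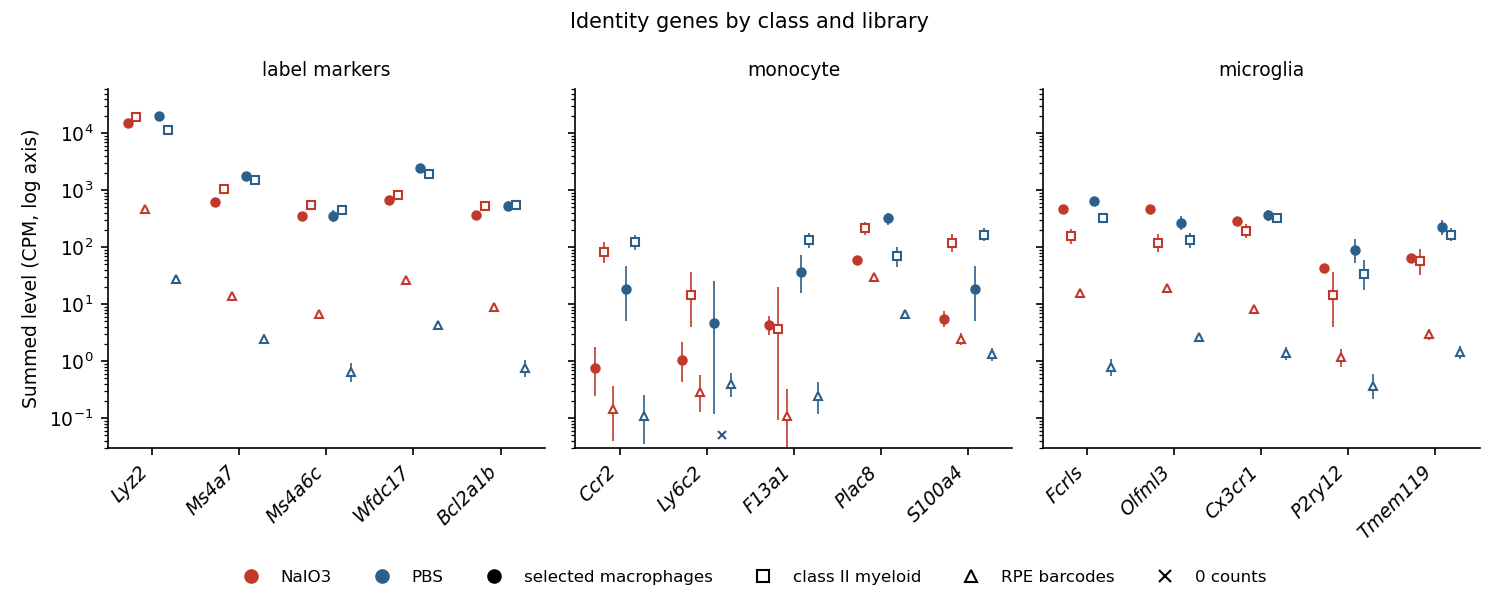
Summed level (y axis, CPM, log axis) of the 5 proposed markers, 5 monocyte genes and 5 microglia genes in selected macrophages (filled circles), class II myeloid barcodes (squares) and RPE barcodes (triangles), NaIO3 red and PBS blue, with 95% Poisson intervals; a cross marks 0 counts. Ccr2 lies at 0.753 CPM in selected NaIO3 macrophages and 83.3 CPM in class II barcodes, while Fcrls lies at 474 and 156 CPM.

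Lymphocyte markers were rare in the selected macrophages, and markers of RPE, rods and surface epithelium were present. Of the 5 T cell markers the sum was 4.07 CPM after NaIO3 and 4.64 CPM after PBS, of 5 NK cell markers 1.05 and 4.64 CPM, and of 4 B cell markers 2.56 and 27.8 CPM. The 9 neutrophil markers summed to 118 and 121 CPM, and to 124 and 62.1 CPM without the keratin and fibroblast barcodes. The 8 dendritic cell markers summed to 35.8 and 23.2 CPM, against 344 CPM in class II barcodes of the NaIO3 library. The 8 RPE genes summed to 6694 CPM after NaIO3 and 11875 CPM after PBS, below the 79963 and 115589 CPM of RPE barcodes. The 6 rod genes summed to 335 and 1643 CPM, and RPE barcodes held 328 and 838 CPM of them. The 6 mural cell genes summed to 127 and 23.2 CPM. The 6 fibroblast genes summed to 207 CPM after NaIO3 and 55.7 CPM after PBS, and without the keratin and fibroblast barcodes to 46.5 and 62.1 CPM, the other direction. The 6 keratins summed to 2262 CPM after NaIO3 and 2032 CPM after PBS, and without those barcodes to 1192 and 62.1 CPM, while RPE barcodes held 1489 and 108 CPM. All 6 keratins were then at least 2-fold higher after NaIO3, and the part of RNA from these cells in the differences below was not tested except where values without the barcodes are given.

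Genes were ranked by their share of UMIs, which is not corrected for transcript length. After NaIO3 the first were Apoe, an apolipoprotein (56613 CPM), Spp1, the secreted matrix protein osteopontin (49582 CPM), Ctsd, the lysosomal protease cathepsin D (26254 CPM), and Ftl1, the ferritin light chain (25111 CPM). After PBS they were Apoe (57508 CPM), the nuclear RNA Malat1 (36626 CPM), Fth1, the ferritin heavy chain (25698 CPM), and Lyz2. Of the first 15 genes, Spp1, Gpnmb, B2m, Psap and Tyrobp were in the NaIO3 list and not in the PBS list.

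Spp1 had the highest Fano factor, a measure that grows with the mean. After thinning each NaIO3 cell to 3000 UMIs this factor, the variance over the mean, was 86.8, with a median of 100.5 UMIs and a maximum of 535, against a median Fano factor of 1.17 over 574 genes. Malat1 (50.04), Apoe (45.7) and Lyz2 (44.7) followed. Lyz2, whose level the rule bounds from below, had a median of 24 UMIs and an upper quartile of 63. Krt12 (42.8), Slurp1 (17.1), Psca (16.02) and Krt6a (13.5), genes of the surface epithelium, also had high values, and Krt12 had a median of 1 UMI and a maximum of 158.

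Within the NaIO3 library the macrophages with more Lyz2 differed from those with less in a limited set of genes. They were split by the selecting sum into 16 cells from 10 to 20 CP10K, 119 from 20 to 50, 128 from 50 to 100, 84 from 100 to 200 and 131 at 200 or more. The median UMI count in these ranges was 7102.5, 11724, 11449.5, 11130 and 14418. Cells at 50 CP10K or more were set against those from 10 to 50: 1.03% of 7972 genes with at least 50 counts were at least 2-fold higher and 4.44% at least 2-fold lower. Without the keratin and fibroblast barcodes these shares were 1.31% and 1.45% of 7608 genes, and the values in the following 2 paragraphs are without them. The genes named there were picked after their values were seen, apart from list members. The ranges use the sum that chose the cells, here and for the PBS cells below. Their differences are therefore a description only and no support for an identity of the cells.

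The secreted peptide galanin gene Gal was higher in cells at 100 CP10K or more. It stood at 8.59, 6.94, 7.70, 112 and 268 CPM from the lowest to the highest range, 19.9-fold higher at 50 CP10K or more than below (10.8 to 41.7). Acp5, a tartrate-resistant acid phosphatase of osteoclasts and lipid-laden macrophages, stood at 25.8, 33.1, 59.2, 194 and 412 CPM. Gdf3, a TGF-beta family ligand, and Clec12a, an inhibitory lectin receptor of myeloid cells, had 0 counts in the lowest range and 86.4 and 84.4 CPM in the highest. Both markers outside the rule were higher in the upper cells, Wfdc17 by 2.90-fold (2.62 to 3.22) and Bcl2a1b by 1.27-fold (1.14 to 1.41). Cybb, the catalytic subunit of the phagocyte NADPH oxidase, was 2.90-fold higher (2.26 to 3.78), and Clec4n, the lectin receptor dectin-2, 8.12-fold (4.21 to 18.0). Of the MS4A genes outside the sum, Ms4a4c, Ms4a6b and Ms4a6d were the 3 tested, with ratios of 1.77, 2.67 and 1.75, and reads shared between these similar genes were not separated here.

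Genes of microglia went the other way. All 9 tested microglia genes were lower in the upper cells and 3 of them by at least 2-fold, with a median log2 ratio of -0.77 against -0.12 over all genes. P2ry12 had a ratio of 0.44 (0.34 to 0.57), Tmem119 of 0.49 (0.40 to 0.60) and Sparc, a matrix-binding protein, of 0.37 (0.35 to 0.40). Sparc stood at 1031, 970, 654, 314 and 147 CPM over the 5 ranges, and Serpine2, a protease inhibitor, at 524, 754, 726, 405 and 93.9 CPM. Cst7, the protease inhibitor cystatin F of activated microglia, stood at 129, 258, 233, 137 and 49.7 CPM. Spp1 and Trem2 were close to even, at ratios of 1.05 and 1.04. RPE barcodes of this library held 384 CPM of Sparc but 1.17 CPM of P2ry12 and 2.95 CPM of Tmem119.

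**Figure D3:**
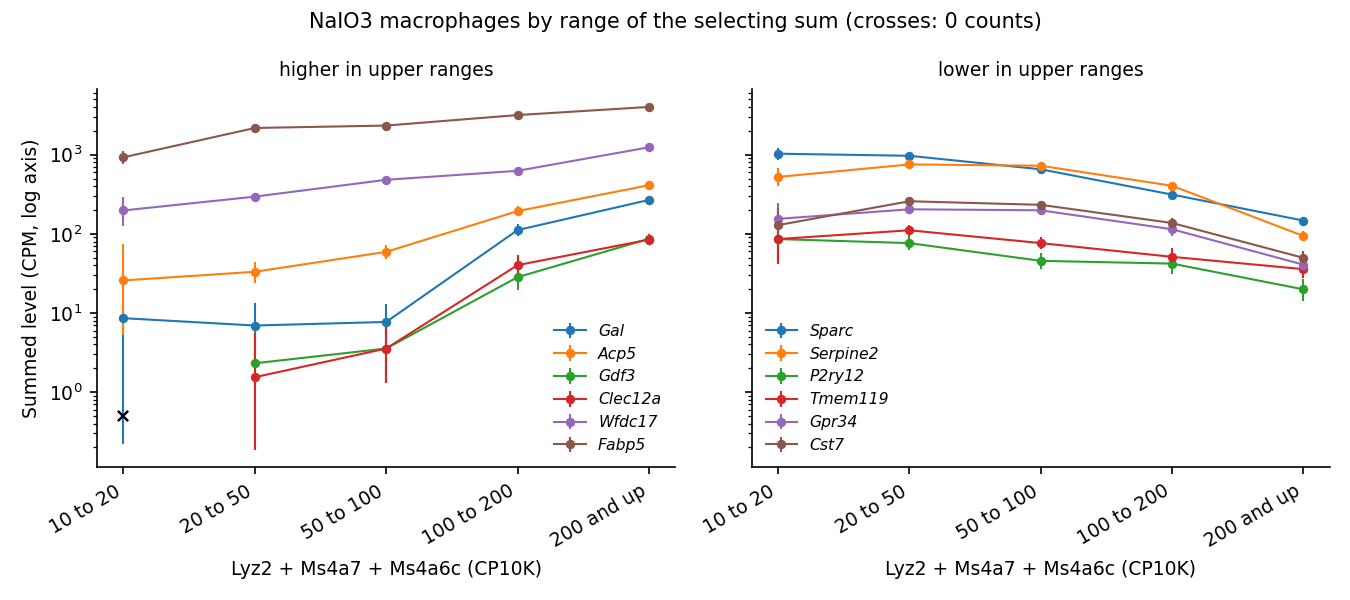
Summed level (y axis, CPM, log axis) of 12 genes in NaIO3 macrophages by range of the selecting sum (x axis, CP10K), without keratin or fibroblast barcodes, with 95% Poisson intervals; the cross marks Gdf3 and Clec12a at 0 counts. Gal lies at 8.59 CPM in the lowest range and 268 CPM in the highest, and Sparc at 1031 and 147 CPM.

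The PBS cells were few. Of 39 PBS macrophages, 31 had a sum of 50 CP10K or more and 8 a sum from 10 to 50. The upper cells had less P2ry12 (ratio 0.10, 0.03 to 0.27) and Tmem119 (0.25, 0.13 to 0.45) and more Wfdc17 (13.3, 6.71 to 31.0) and Apoe (3.14, 2.92 to 3.38). Clec12a had a ratio of 1.12 with an interval (0.43 to 3.73) that includes 1, and Gal had no count in either range. The 12 PBS low-sum macrophages, which the rule left out, carried 1231 CPM of Tmem119 and 477 CPM of P2ry12. At 3000 UMIs 28.2% of the 39 selected PBS macrophages and 100% of the 12 low-sum ones had a Tmem119 UMI.

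The comparison of NaIO3 with PBS macrophages asks how cells that pass the same rule differ between injured and control eyes. Spp1 was the leading gene, and Gal, Phlda3, Gpnmb, Fn1, Fabp3 and Ctsl followed in the ranking, while Pf4, Vcam1, Mrc1 and 8 of 11 tested chemokines were lower. Of 8094 genes with at least 50 counts, 10.7% were at least 2-fold higher and 10.3% at least 2-fold lower after NaIO3, with a median log2 ratio of -0.16. Without the keratin and fibroblast barcodes it was 10.5% and 10.3% of 7728 genes. All list counts for NaIO3 against PBS below are to be read beside these shares. TMM scaling in place of the total count raises every log2 ratio of this comparison by 0.27 and gives 1390 higher and 491 lower genes, against 866 and 837 by total count, so that ratios near 1 have no firm direction.

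Spp1 (chromosome 5, 104435118 to 104441050, GRCm38) was found in every NaIO3 cell, with a median of 339 CP10K (6.12 to 1796), and in 12 of 39 PBS cells, with a median of 0 (0 to 212). The ranges overlap, but 27 PBS cells had no Spp1 count at all. Summed, it was 49582 CPM after NaIO3 and 1643 CPM after PBS, a ratio of 30.2 (27.2 to 33.6), and 68.6% of the PBS counts came from 1 barcode. Spp1 in RPE barcodes was 1308 CPM after NaIO3 and 3.83 CPM after PBS, so that a share of cells with an Spp1 UMI says little in the NaIO3 library, where 97% of RPE barcodes had one at 3000 UMIs.

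Gpnmb, a transmembrane glycoprotein of lysosome-rich macrophages, had a median of 70.3 CP10K after NaIO3 (1.81 to 198) and 1.56 CP10K after PBS (0 to 57.0). Its summed level was 7460 and 1142 CPM, a ratio of 6.53 (5.77 to 7.44). Ctsl, the lysosomal protease cathepsin L, stood at 3181 CPM after NaIO3 and 617 CPM after PBS (5.15, 4.35 to 6.16). In the class II barcodes of the NaIO3 library Gpnmb had 2087 CPM and Ctsl 543 CPM, both below the selected cells.

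The ranking also held 2 apolipoproteins and a fatty-acid-binding protein. Apoc1, an apolipoprotein, had 245 CPM after NaIO3 and 27.8 CPM after PBS (8.78, 4.03 to 24.0; 16.7 without the keratin and fibroblast barcodes), Apoc4, a second apolipoprotein, had 133 and 9.28 CPM (14.3, 3.95 to 119), and Fabp3, a fatty-acid-binding protein, had 168 and 9.28 CPM (18.1, 4.99 to 149). The PBS levels of these rest on 2 to 6 counts. Lrpap1, a chaperone of lipoprotein receptors, had 618 and 102 CPM (6.05, 3.99 to 9.67). The other ranked genes were Ctla2a, a cathepsin inhibitor (7.22), Tmsb10, an actin-binding peptide (4.07), and Gal, Phlda3 and Fn1, which had no PBS count and were at least 7.45, 7.40 and 6.26-fold higher against a floor of 3 counts. Gal was detected in 96 of 478 NaIO3 cells (unthinned), while Phlda3, a p53 target, and Fn1, fibronectin, stood at 103 and 87.2 CPM in NaIO3 macrophages but at 140 and 166 CPM over all non-myeloid barcodes of that library.

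Among the 12 genes that ranked as lower after NaIO3, 8 rested on the single PBS barcode with keratin genes. These were Ifit1bl1, Prss27, Upk1b, Psca, Lypd2, Arg1, Pglyrp1 and Hbegf. The barcode held 98.0% of the PBS counts of Ifit1bl1 and 98.9% of those of Psca, and without the keratin and fibroblast barcodes the ratio was 0.96 for Ifit1bl1, 3.94 for Psca, 2.50 for Lypd2 and 1.02 for Pglyrp1. Pf4 and Vcam1 were lower with and without those barcodes. Pf4, a platelet chemokine also made by choroidal macrophages, had 47.9 CPM after NaIO3 and 691 CPM after PBS (0.069, 0.057 to 0.085), and was found in 156 of 478 NaIO3 and 20 of 39 PBS cells. Vcam1, an adhesion molecule, had 13.9 and 162 CPM (0.085, 0.057 to 0.13), but had too few counts to be ranked without those barcodes. Rcvrn, a rod gene, was also lower, with 14.5 and 130 CPM (0.11, 0.072 to 0.18), and the rod genes together were lower in RPE barcodes too, with 328 CPM after NaIO3 and 838 CPM after PBS.

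Ranked again without those barcodes, the lower genes included Pf4, Cxcl2, Mmp12, Tmem176b, Tmcc1, Lsp1, Clec4d and the rod genes Rcvrn, Gngt1, Pde6g and Pdc. Mmp12, the macrophage elastase, had 29.1 CPM after NaIO3 and 212 CPM after PBS (0.14, 0.097 to 0.20). Lsp1, a leukocyte actin-binding protein, had 43.0 and 238 CPM (0.18, 0.13 to 0.25). Tmem176b, a membrane protein of immature myeloid cells, had 108 and 611 CPM (0.177, 0.145 to 0.217), with 157 and 156 CPM in RPE barcodes. Among the higher genes the only exchange was Tnfrsf21 in place of Fn1.

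**Figure D4:**
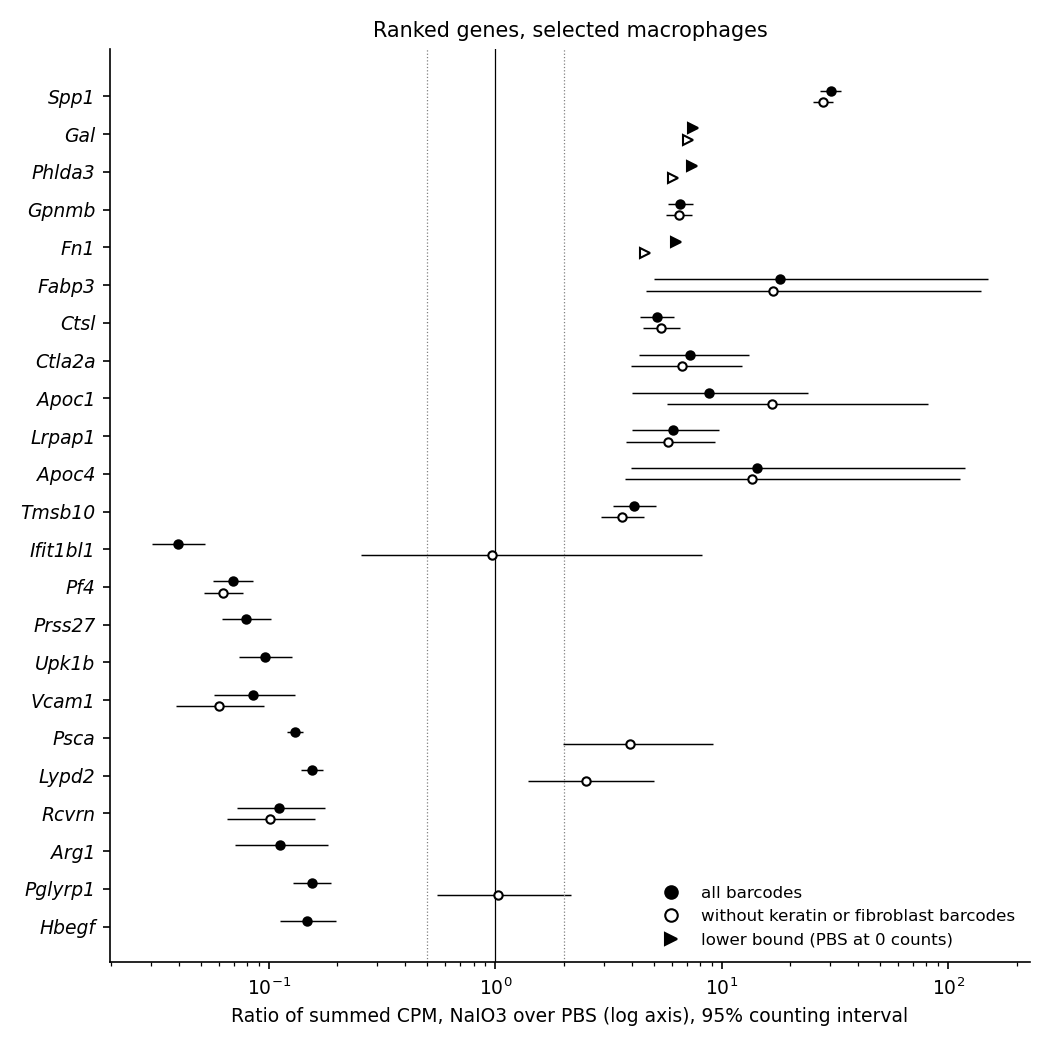
Ratio of summed CPM, NaIO3 over PBS macrophages (x axis, log axis), for the 12 highest-ranked and 11 of the lowest-ranked genes with 95% counting intervals, over all selected barcodes (filled) and without keratin or fibroblast barcodes (open); arrowheads are lower bounds, and 4 genes have no open point because PBS had no count left. Spp1 lies at 30.2, and Psca lies at 0.13 with and 3.94 without these barcodes.

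Lysosomal genes were higher after NaIO3 in most cases. Of 20 lysosomal genes, 7 were at least 2-fold higher after NaIO3 and none at least 2-fold lower, 18 had ratios above 1, and the median log2 ratio was 0.70. Their summed level was 71983 CPM after NaIO3 and 35796 CPM after PBS, and without the keratin barcodes 6 of 20 were at least 2-fold higher. The sum was also higher after NaIO3 in class II myeloid barcodes (35954 and 17388 CPM) and in RPE barcodes (12354 and 7411 CPM). The direction was thus not particular to the selected macrophages. Ctsd had a median of 248 CP10K per cell after NaIO3 (28.8 to 705) and 74.3 CP10K after PBS (0 to 340), with summed levels of 26254 and 10074 CPM (2.61, 2.50 to 2.72). Grn, the lysosomal glycoprotein progranulin, had 3043 and 1165 CPM (2.61, 2.31 to 2.97), and the proteases Ctsz and Ctsb had ratios of 2.24 and 2.01. Atp6v0d2, a proton pump subunit, had a ratio of 2.70, while Ctsc (0.87) and Lipa (0.82), the lysosomal acid lipase, lay below 1 with intervals that include 1, and Ctsc lies above 1 with TMM scaling.

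Promoter windows are shown for Ctsd and Ctsl, which are among the 7 and hold CACGTG, given in capitals. Basic helix-loop-helix factors such as the lysosomal regulator TFEB bind this sequence. The windows lie at chr7:142387778-142388077 and chr13:64370471-64370770, both on the minus strand (RefSeq, GRCm38.p6).
Ctsd: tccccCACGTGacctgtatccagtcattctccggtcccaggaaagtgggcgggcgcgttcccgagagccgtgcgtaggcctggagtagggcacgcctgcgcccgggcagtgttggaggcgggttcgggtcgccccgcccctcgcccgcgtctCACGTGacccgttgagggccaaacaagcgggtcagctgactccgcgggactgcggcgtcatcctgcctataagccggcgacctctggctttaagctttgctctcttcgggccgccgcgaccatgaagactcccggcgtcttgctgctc
Ctsl: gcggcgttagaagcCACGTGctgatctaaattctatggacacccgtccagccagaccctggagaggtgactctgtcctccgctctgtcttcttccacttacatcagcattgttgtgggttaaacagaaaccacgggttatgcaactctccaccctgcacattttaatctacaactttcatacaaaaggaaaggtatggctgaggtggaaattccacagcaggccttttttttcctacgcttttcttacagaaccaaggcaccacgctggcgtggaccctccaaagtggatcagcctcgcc
CACGTG, which reads the same on both strands, occurs 2 times in the Ctsd window and 1 time in the Ctsl window. Of the 20 lysosomal genes, 14 had a promoter sequence here. Of these 14, 5 had CACGTG (Lamp1, Ctsa, Ctsd, Ctsl and Lgmn), against 8.11% of 26742 genes. Of these 5, Ctsd and Ctsl were at least 2-fold higher, and Lamp1, Ctsa and Lgmn had ratios of 1.26, 1.72 and 1.27. Grn and Ctsz, also among the 7, had no CACGTG. The matches describe the letters only, and regulation by TFEB was not tested.

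Genes of lipid-associated macrophages, a state described in Trem2-positive cells of fat tissue, were higher in part. Of 17 tested, 6 were at least 2-fold higher and 1 at least 2-fold lower, with a median log2 ratio of 0.60. Their sum was 168423 CPM after NaIO3 and 87057 CPM after PBS. It was also higher after NaIO3 in class II myeloid barcodes (80810 and 46603 CPM) and RPE barcodes (22095 and 13097 CPM). The 6 higher genes were Spp1, Gpnmb, Ctsd, Ctsb, Igf1 and Cd63, and the lower gene was Mmp12. Igf1, the growth factor, had a median of 9.37 CP10K after NaIO3 (0 to 32.5) and 4.69 CP10K after PBS (0 to 16.7), with summed levels of 1040 and 478 CPM (2.18, 1.79 to 2.67). Trem2, the lipid receptor of the list, had 2212 and 1949 CPM, a ratio of 1.13 (1.03 to 1.25), and Apoe had 56613 and 57508 CPM, a ratio of 0.98 (0.967 to 1.002). Both were thus high in either library. Lipid-handling genes had no common direction: 8 of 14 lay below 1, and the median log2 ratio was -0.13 against -0.16 over all tested genes. Their sum was 63546 CPM after NaIO3 and 62371 CPM after PBS. At least 2-fold higher were 3 of 14, against 10.7% of all tested genes, and none was at least 2-fold lower. These 3 were the sterol exporters Abca1 (2.05) and Abcg1 (2.68) and the lipid droplet coat protein Plin2 (2.38, 1.80 to 3.23). Without the keratin and fibroblast barcodes the count was 2 of 14, with Abca1 at 1.87 and Abcg1 at 7.18 (1.98 to 59.5).

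Markers of border macrophages, the resident cells along vessels, were lower in 5 of 6 tested genes, with a median log2 ratio of -1.91. Mrc1, the mannose receptor, had 3.92 CPM after NaIO3 and 139 CPM after PBS (0.028, 0.016 to 0.049), with UMIs in 17 of 478 and 13 of 39 cells. Stab1, a scavenger receptor, had 109 and 269 CPM (0.41, 0.31 to 0.54), Cbr2 20.8 and 102 CPM, and Folr2 10.7 and 27.8 CPM. Colec12, a scavenger receptor with a collagen-like domain, was the exception, with 61.4 and 13.9 CPM (4.41, 1.499 to 21.5). The count was also 5 of 6 without the keratin barcodes. The sum of the list was 261 CPM after NaIO3 and 1318 CPM after PBS. In class II myeloid barcodes it was 522 and 2110 CPM, so the lower level was not particular to the selected macrophages.

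Chemokines were lower in 8 of 11 tested genes, and the same number held without the keratin barcodes. Their sum was 616 CPM after NaIO3 and 2204 CPM after PBS, and it was also lower after NaIO3 in class II myeloid barcodes (2090 and 4186 CPM). The neutrophil attractant Cxcl2 had 14.9 CPM after NaIO3 and 121 CPM after PBS (0.12, 0.080 to 0.20), Ccl3 131 and 422 CPM (0.31, 0.25 to 0.39), and Cxcl16 130 and 297 CPM (0.44, 0.34 to 0.57). Ccl2, the ligand of Ccr2, was the only gene at least 2-fold higher, with 49.4 and 23.2 CPM and an interval (0.90 to 6.60) that includes 1. The PBS counts came from few cells, since Cxcl2 was found in 5 of 39 cells and 64.3% of Ccl12 counts were in 1 barcode. Il1b, the cytokine interleukin 1 beta, had 11 counts after NaIO3 and 19 after PBS, 89.5% of the PBS counts in 1 barcode.

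Receptors showed no common direction. Of 16 tested phagocytic receptors and bridging proteins, 3 were at least 2-fold higher and 2 at least 2-fold lower. Over all tested genes the shares were 10.7% and 10.3%. Mfge8, which bridges dying cells to integrins, had 141 CPM after NaIO3 and 41.8 CPM after PBS (3.39, 1.78 to 7.43), and RPE barcodes of the NaIO3 library held 52.1 CPM. The phosphatidylserine receptor kinase Mertk had 41.6 and 41.8 CPM, a ratio of 0.995 (0.517 to 2.20). Of 13 sensing genes, 5 were at least 2-fold lower, among them the lipopolysaccharide co-receptor Cd14 with 59.0 and 260 CPM (0.23, 0.17 to 0.31) and the inhibitor Nfkbia with 96.5 and 394 CPM (0.245, 0.195 to 0.311). Tlr7, the sensor of single-stranded RNA, was higher, with 36.3 and 9.28 CPM (3.91, 1.07 to 32.5).

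Transcription factors were mostly lower, with 7 of 15 at least 2-fold lower, none at least 2-fold higher and a median log2 ratio of -0.995; without the keratin barcodes it was 9 of 15. Maf, a basic leucine zipper factor of macrophages, had 82.5 CPM after NaIO3 and 316 CPM after PBS (0.26, 0.20 to 0.34). Cebpb had 162 and 473 CPM (0.34, 0.28 to 0.42). Spi1, the gene of PU.1, had 179 and 260 CPM (0.69, 0.53 to 0.92). Immediate early genes, which also respond to tissue digestion, were below 1 in 17 of 18, with 5 at least 2-fold lower, and Atf3, a stress-induced factor, was the exception with 127 and 46.4 CPM (2.74, 1.48 to 5.72). The median log2 ratio of the list was -0.73.

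The ferritin chains differed in direction. Fth1 had 10962 CPM after NaIO3 and 25698 CPM after PBS (0.43, 0.42 to 0.44), and Ftl1 had 25111 and 16320 CPM (1.54, 1.49 to 1.59). Of 10 iron and haem genes, 4 were at least 2-fold lower, among them the iron exporter Slc40a1 (0.41, 0.23 to 0.79) and the biliverdin reductase Blvrb (0.29, 0.24 to 0.36). Hmox1, haem oxygenase, had 155 and 83.5 CPM (1.85, 1.17 to 3.14).

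The glycolysis list, which also holds Hif1a, Bnip3 and Egln3, was above 1 in 12 of 14 genes, with 3 at least 2-fold higher. Without the keratin and fibroblast barcodes these 3 were Pgam1 (2.09), Bnip3 (at least 2.22, no PBS count) and Egln3 (2.02, 0.35 to 81.1). The list summed to 4184 CPM after NaIO3 and 3123 CPM after PBS, below the 4737 and 4317 CPM of RPE barcodes. MHC class I genes had none past 2-fold in either direction among 10. Gapdh, the glycolytic dehydrogenase, had 1055 CPM after NaIO3 and 691 CPM after PBS (1.53, 1.30 to 1.81). B2m, the light chain of class I molecules, had 6922 and 4320 CPM (1.60, 1.502 to 1.71). Interferon-stimulated genes had 4 of 19 at least 2-fold lower and a median log2 ratio of -0.66. Without the keratin barcodes it was 3 of 18 and a median of -0.01, against 10.3% and -0.19 over all tested genes. Bst2, a membrane protein of this list, had 578 and 538 CPM (1.07, 0.89 to 1.30). Cell division genes summed to 373 CPM after NaIO3 and 158 CPM after PBS (2.36, 1.69 to 3.42), and Top2a, Cdk1 and Birc5 had 110, 183 and 174 counts after NaIO3 and 0 after PBS. Against a floor of 3 PBS counts these 3 were at least 1.19, 1.98 and 1.88-fold higher, so that for them a 2-fold difference was not detectable. Of 12 tested genes of the list 2 were at least 2-fold higher, Stmn1 and Tyms. Without the keratin and fibroblast barcodes their ratios were 8.60 (2.37 to 71.2) and 2.52 (0.44 to 101). RPE barcodes of the NaIO3 library held 27.2 CPM of Cdk1, close to the 27.6 CPM of the macrophages there. The whole list summed to 200 CPM in these RPE barcodes and 346 CPM over all non-myeloid barcodes of that library.

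**Figure D5:**
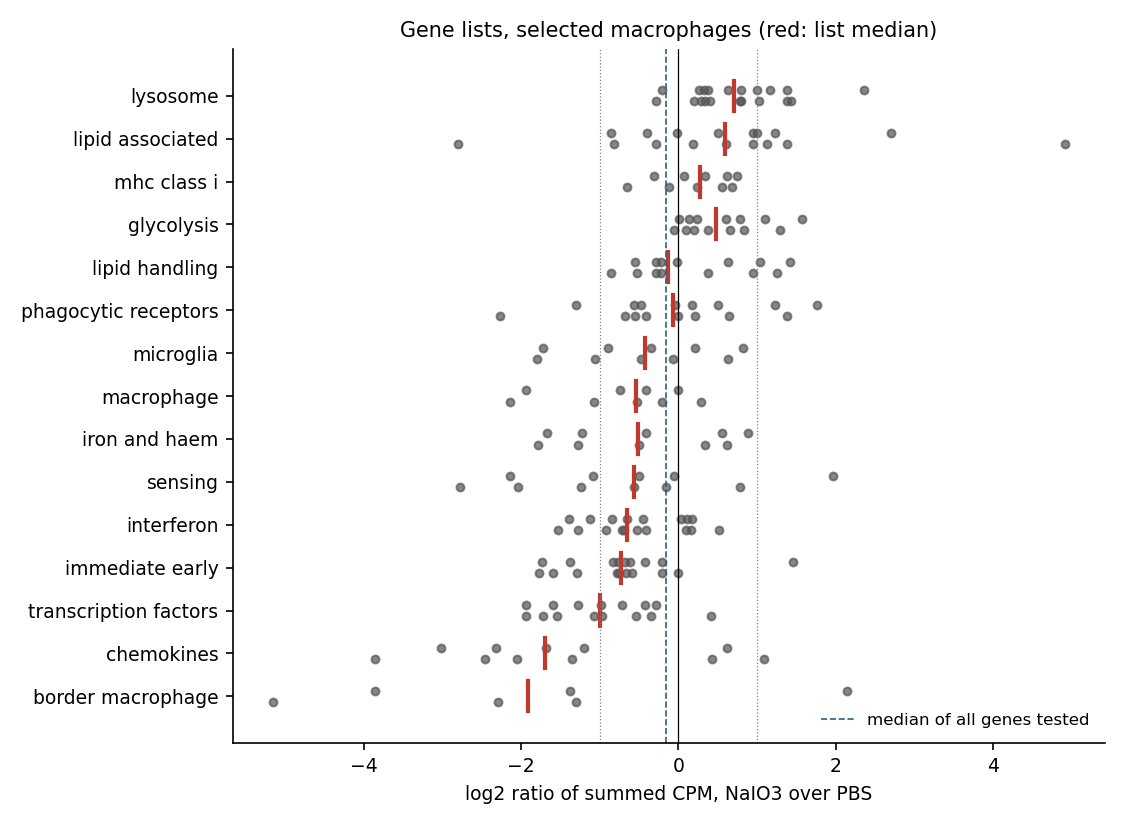
log2 ratio of summed CPM, NaIO3 over PBS macrophages (x axis), for each tested gene (points) of 15 gene lists (y axis), with the list median in red, the median of all tested genes as a dashed line and 2-fold limits dotted. The lysosome median is 0.70 and the border macrophage median -1.91.

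Against the class II myeloid barcodes of the same NaIO3 library, the selected macrophages carried more microglia and lipid-associated genes and less of the chemokines and immediate early genes. Of 8143 tested genes, 11.5% were at least 2-fold higher and 8.62% at least 2-fold lower. Of 9 tested microglia genes 7 were at least 2-fold higher, with a median log2 ratio of 1.38, and of 17 lipid-associated genes 10 were at least 2-fold higher and 2 at least 2-fold lower. Igf1 had 1040 CPM in selected cells and 138 CPM in class II barcodes (7.56, 5.5 to 10.7), Spp1 49582 and 3760 CPM (13.2, 12.4 to 14.03), and Ctsl 3181 and 543 CPM (5.85, 4.99 to 6.92). Csf1, the macrophage growth factor, had 46.4 and 3.62 CPM, the second of these from 1 count (12.8, 2.28 to 507). Of 13 chemokines 10 were at least 2-fold lower and none higher, and of 18 immediate early genes 11 were at least 2-fold lower. Ccl5, a T cell attractant, had 21.4 CPM in selected cells and 301 CPM in class II barcodes (0.071, 0.054 to 0.094), and Lsp1 had 43.5 and 478 CPM (0.091, 0.074 to 0.11). The class II genes themselves were part of the rule and are no result here.

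The rule's own contrast, with the low-sum macrophages of the NaIO3 library, rests on 5 barcodes with 37584 UMIs and is given as a description. Of 8008 tested genes, 5.77% were at least 2-fold higher in the selected cells and 27.5% at least 2-fold lower. Among those that ranked as higher were Spp1 (49582 CPM in selected and 3645 CPM in low-sum cells, 13.6, 11.5 to 16.2), Ctsb (13027 and 1118 CPM, 11.7, 8.62 to 16.2), Apoe (56613 and 9153 CPM, 6.19, 5.57 to 6.90) and Plin2, which had no count in the low-sum cells and was at least 6.79-fold higher. All 20 lysosomal genes had ratios above 1. The low-sum cells had a median myeloid sum of 36.8 CP10K, close to the limit of 30, against 301 CP10K in the selected cells. Among the 12 genes that ranked as lower, 8 were photoreceptor genes such as Prph2 (22.4 CPM in selected and 798 CPM in low-sum cells), and 1 low-sum barcode held all of the Prph2 and Rcvrn counts of the low-sum cells.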

How the data were processed

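The deposited files hold whole-number counts of UMIs per gene and barcode, 27998 genes in 2 libraries; per the submitters' processing notes they were made with Cell Ranger 3.0.2 on mm10. Handling of reads that match several genes is not given in the sources used here, so near-identical genes (Bcl2a1a, Bcl2a1b and Bcl2a1d, Lyz1 and Lyz2, the MS4A family) are uncertain. Counts of barcodes that passed the rule were summed per library and expressed as CPM. A ratio was computed for genes with at least 50 counts over both groups, with a conditional exact binomial interval, and levels have exact Poisson intervals, all at 95% and for counting error only. The members and gene lists were chosen with earlier results of these data known. The 12 genes named per direction had at least 100 counts and ranked first by the interval bound nearest 1, leaving out mitochondrial, ribosomal, haemoglobin, predicted, sex-linked and rule genes and those under 0.5 of the level in barcodes with a myeloid sum under 30. List members, the 15 genes of highest CPM and the 12 of highest Fano factor could also be named. Percentages of cells with a UMI at 3000 UMIs were taken after thinning each cell to that depth; numbers of cells given as one of another are unthinned and depend on depth, which was lower after PBS. Annotation was GENCODE M21, promoters were RefSeq's on GRCm38.p6, and the tools were Python 3.11.15, numpy 2.4.6, scipy 1.17.1, pandas 2.3.3, scanpy 1.11.5 and edgeR 4.0.16, used for scaling factors only. The ratios were tested on simulated counts, and 12 planned and 3 added alternatives were tried. A few list genes are not reported here.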

Additional observations from a re-analysis of the deposited data

Results flagged for a closer look

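Ifit1bl1, a gene with interferon-induced relatives, was lower in selected than in low-sum macrophages of the NaIO3 library, with a ratio of 0.0585, and higher in those of the PBS library, with a ratio of 1.69. It drew attention because the direction differs between the libraries. The difference was not tested, since each group is 1 library. In the PBS library 98.0% of its counts in selected macrophages came from 1 barcode, the one with keratin genes.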

How the results depend on the processing

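No paired analysis was possible because each group is 1 library. The selected share of macrophages was 95.7% after NaIO3 at a threshold of 20 CP10K, 71.0% at 50 CP10K and 99.8% with a myeloid sum of at least 60 CP10K, and after PBS 88.2% at 5 CP10K and 60.8% at 50 CP10K. Between NaIO3 and PBS, 1390 genes were higher and 491 lower with TMM scaling, 561 and 433 with at least 100 counts, and 48 and 89 at 100 CPM or more, and 2283 were lower with 1 count in each group. Against low-sum macrophages, the higher genes numbered 239 at 5 CP10K, 79 at 50 CP10K, 64 with the stricter myeloid sum, 168 with an RPE sum under 30 CP10K, 1649 with TMM, 1222 with median-of-ratios scaling, 298 without keratin or fibroblast barcodes and 204 at 100 CPM or more. The lower ones numbered 1388 at 20 CP10K, 387 at 50 CP10K, 1149 with the stricter myeloid sum, 607 with TMM, 935 with median-of-ratios, 1232 with at least 100 counts, 3322 with 1 count in each group and 370 at 100 CPM or more. On the log2 scale, Lypd2 was at 1.32, Pglyrp1 at 0.033 and Psca at 1.98 for NaIO3 over PBS without the keratin or fibroblast barcodes. Against low-sum macrophages, Igf1 was at -0.0223 and Syngr1 at -0.0184 at 50 CP10K, and Pde6g at 0.23 with a mitochondrial limit of 10%. Of single-gene and list values, 677 stayed within their counting interval, 368 moved and 6 changed sign. The cause was not tested. The alternatives at 50 CP10K, without the keratin or fibroblast barcodes and at 100 CPM were chosen after seeing the data. Depth limits the PBS values, with 39 cells and 215502 UMIs.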
